A study of Mus musculus with 18 samples.

Results

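The genes described here are 10 germline genes of the piRNA pathway and of genome defence: Dazl, Ddx4, Mael, Asz1, Tdrd1, Tdrd9, Mov10l1, Piwil1, Piwil2 and Piwil4. They were taken from a list of names, and their loci were defined as the gene body with 50 kb beyond either annotated end (mouse build GRCm38, the same as mm10). These loci held 141 of the 166066 accessible regions of the study. The study used mouse embryonic stem cells of the line dTKO and mapped accessible chromatin by ATAC-seq, which reads out where a transposase can reach the DNA. All 18 libraries carry the genotype Suv39h1fl/fl ; Suv39h2-/- ; Setdb1fl/fl and the treatment of auxin (100 µg/ml) with dTAG13 (0.5 µM), compounds that trigger degradation of suitably tagged proteins. They differ only in the time after treatment, which was 0, 3, 6, 12, 24 or 48 h, with 3 biological repeats each and 0 h as the baseline. The labels name 1 line, give floxed alleles for Suv39h1 and Setdb1, and do not say which protein is tagged, so removal of the histone H3 lysine 9 methyltransferases was not checked.

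The values are the positions of peaks merged over all libraries, with no library, read count or height attached. Presence of a peak below means that the region was listed for the pooled set, and neither time nor replicate spread can be given. Depth is unknown, so a missing peak means only that none was listed. No test between groups was possible, and every count of genes is a description. Counts of peaks at gene ends are to be read against the share over 21774 protein-coding genes, and counts of promoters and motifs against 17492 of these genes that have a promoter window.

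PIWI proteins bind short piRNAs that match transposons and guide their silencing in the germ line, partly by cutting transposon RNA and partly by directing DNA methylation in fetal male germ cells. Tudor proteins, helicases and mitochondrial scaffold proteins make the piRNAs and load them. In most somatic cells the promoters of these genes are kept silent by DNA methylation and by repressor complexes such as the E2F6-containing Polycomb complex PRC1.6. The methyltransferase Setdb1 is also known for repressing germline genes in embryonic stem cells.

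The ends of these genes were open in most cases, and always on the promoter side. Of the 10 genes, 8 had a peak at an end, meaning within 500 bp on either side of an annotated gene end (80%, 95% Wilson interval 49.0 to 94.3, counting error only), against 71.4% of protein-coding genes. Tdrd9 and Piwil2 had none. A RefSeq promoter window, which runs from 250 bp before a transcript start to 50 bp after it and carries strand, was at hand for 9 members. A peak overlapped a window of 8 of these 9, against 69.2% of 17492 protein-coding genes with a window. At the opposite end, 0 of the 9 had a peak within 500 bp, against 21.6% of genes. These shares lie close enough to the background, for so few genes, that no difference from other genes can be read from them.

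Among the PIWI genes, Piwil1 and Piwil4 had an open promoter and Piwil2 did not have a peak at an end. Piwil1, which encodes MIWI of meiotic and postmeiotic male germ cells (chromosome 5, 128736071 to 128755474), had the narrowest end peak of the members, 386 bp at 128736039 to 128736424. A wider peak of 1500 bp lay inside the gene, with its midpoint 3.50 kb from the start. Piwil4, which encodes the nuclear PIWI protein MIWI2 (chromosome 9, 14701776 to 14740672), had a peak of 768 bp at 14740010 to 14740777. A second peak of 239 bp lay 0.303 kb further into the gene. Its opposite end was just outside the window, with the nearest peak at 0.542 kb. Piwil4 also has an internal promoter window, and the nearest peak to that start lay 1.35 kb away.

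Piwil2, which encodes MILI (chromosome 14, 70372477 to 70436898), had 3 peaks inside the gene of 943, 1078 and 1170 bp, each wider than the median of all peaks (578 bp). The first of them began 7.71 kb inside the lower-coordinate end. The 943 bp peak also lay within 500 bp of an end of another annotated gene, Gm24890. Beyond the higher-coordinate end, a peak of 501 bp began 0.791 kb away, and the next one, of 1364 bp, lay over the neighbouring Polr3d. No promoter window was at hand for Piwil2, so its promoter was not placed.

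The 3 helicase genes fell on both sides. Ddx4, the Vasa helicase of germ granules (chromosome 13, 112598333 to 112652633), had a peak of 908 bp at 112651810 to 112652717, which reached 84 bp beyond the gene and 823 bp into it. Mov10l1, a helicase that acts early in piRNA processing (chromosome 15, 88982891 to 89055152), had a peak of 1055 bp at 88982385 to 88983439. That peak also covered an end of Mlc1, an astrocyte membrane protein gene whose annotated body lies 0.198 kb upstream, so it cannot be assigned to Mov10l1 alone. It was the only end peak of the 8 with another gene's end within 500 bp. Tdrd9, a Tudor-domain helicase that partners MIWI2 (chromosome 12, 111971488 to 112068854), had no peak over its promoter window. The closest one was 308 bp wide and began 1.40 kb downstream of the transcript start. Tdrd9 nevertheless held 12 peaks in its body, the most of the 10 genes.

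Tdrd1, Asz1, Mael and Dazl each had an open promoter. Tdrd1, whose protein binds methylated PIWI proteins (chromosome 19, 56826171 to 56870012), had a peak of 585 bp at 56825985 to 56826569 over its first 2 promoter windows. The start of the other window lay further into the gene, 4.14 kb from the nearest peak. Asz1, a mitochondrial scaffold also called GASZ (chromosome 6, 18050964 to 18109061), had a peak of 625 bp at 18108755 to 18109379, centred almost on the start. Mael, the Maelstrom protein of transposon silencing (chromosome 1, 166201385 to 166238744), had 1 of 955 bp at 166238186 to 166239140. Dazl, an RNA-binding regulator of translation in germ cells rather than a piRNA factor (chromosome 17, 50279393 to 50293620), had the widest, 1226 bp at 50292596 to 50293821. It was flanked by a peak of 230 bp inside the gene and 1 of 445 bp upstream, at gaps of 0.719 and 1.05 kb.

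**Figure D1:**
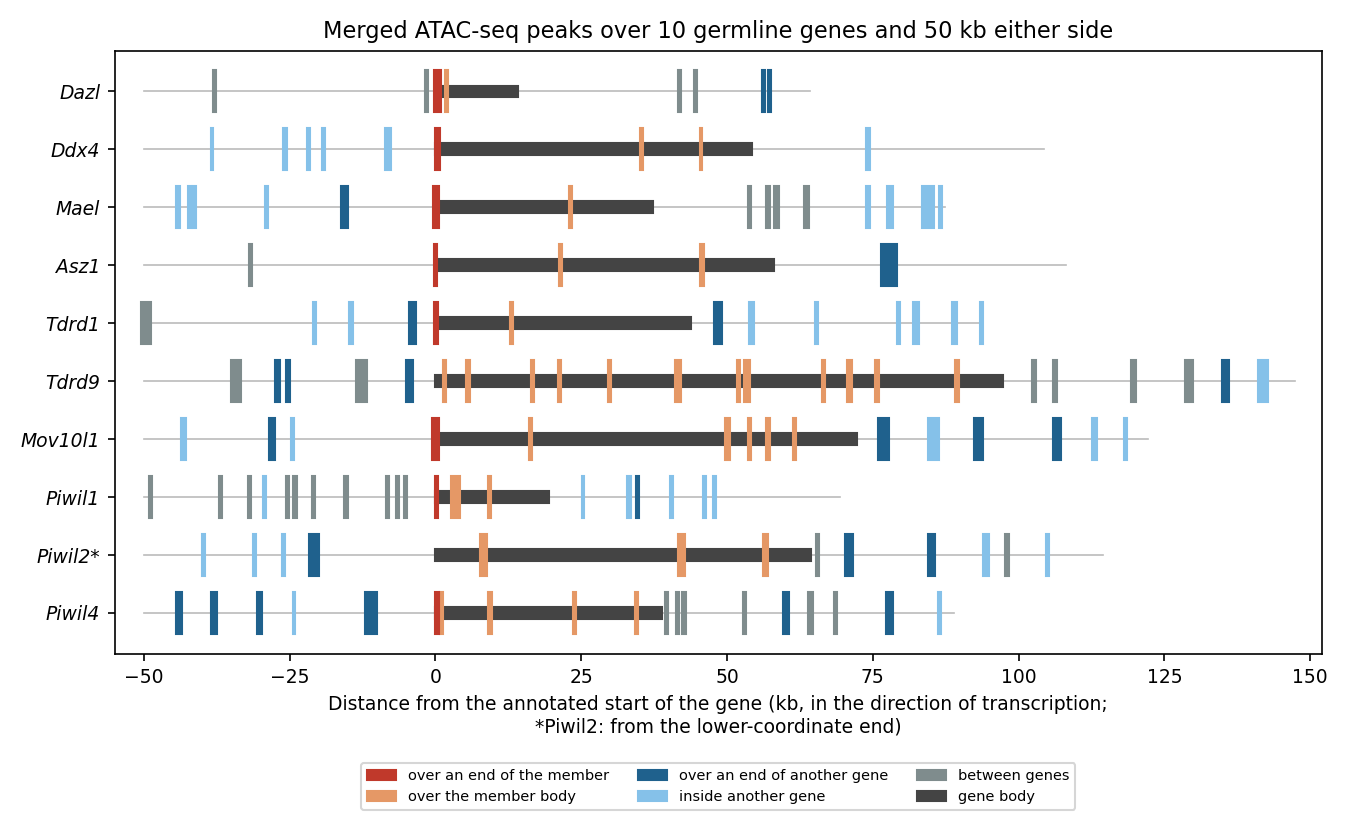
Each row is 1 gene with 50 kb on either side, the x axis is the distance in kb from the annotated start in the direction of transcription (Piwil2, for which no strand was at hand, from its lower-coordinate end), the dark bar is the gene body, and each coloured bar is a merged peak, drawn at least 0.5 kb wide. A peak over the start is present in 8 rows and missing in Tdrd9, which has 12 peaks along its body. Piwil2, whose start was not placed, has no peak over either annotated end.

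The promoter peaks of these genes were narrow. The 8 end peaks had a median width of 838 bp and ran from 386 to 1226 bp, whereas the median over 15550 protein-coding genes with such a peak was 1326 bp (quartiles 1027 and 1678). All 8 lay below that median, and 6 of them, all but Dazl and Mov10l1, lay below the lower quartile. By the medians, the narrowness was seen on both sides of the start. The peaks reached a median of 193.5 bp upstream of the annotated end and 553 bp into the gene. Over 11731 protein-coding genes with a peak at the promoter end, these medians were 492 and 766 bp. Mov10l1 exceeded the first with 506 bp upstream, and Ddx4 and Dazl exceeded the second with 823 and 1024 bp into the gene.

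The members also had narrow peaks when set beside promoters of similar CpG content. Promoters with more CpG had wider peaks, from a median of 798 bp where the observed-to-expected CpG ratio was below 0.2 to 1490.5 bp where it was 1 or more. Each of the 8 members was narrower than the median of genes in its own interval of 0.2 of that ratio. For Tdrd1, 1.40% of 3512 such genes had a narrower peak, for Asz1 3.06% of 3239, for Piwil1 3.36% of 1694 and for Ddx4 7.0% of 3512. Piwil4, Mael and Mov10l1 followed with 13.7%, 15.9% and 23.7%, and Dazl stood nearest the middle with 40.3%.

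**Figure D2:**
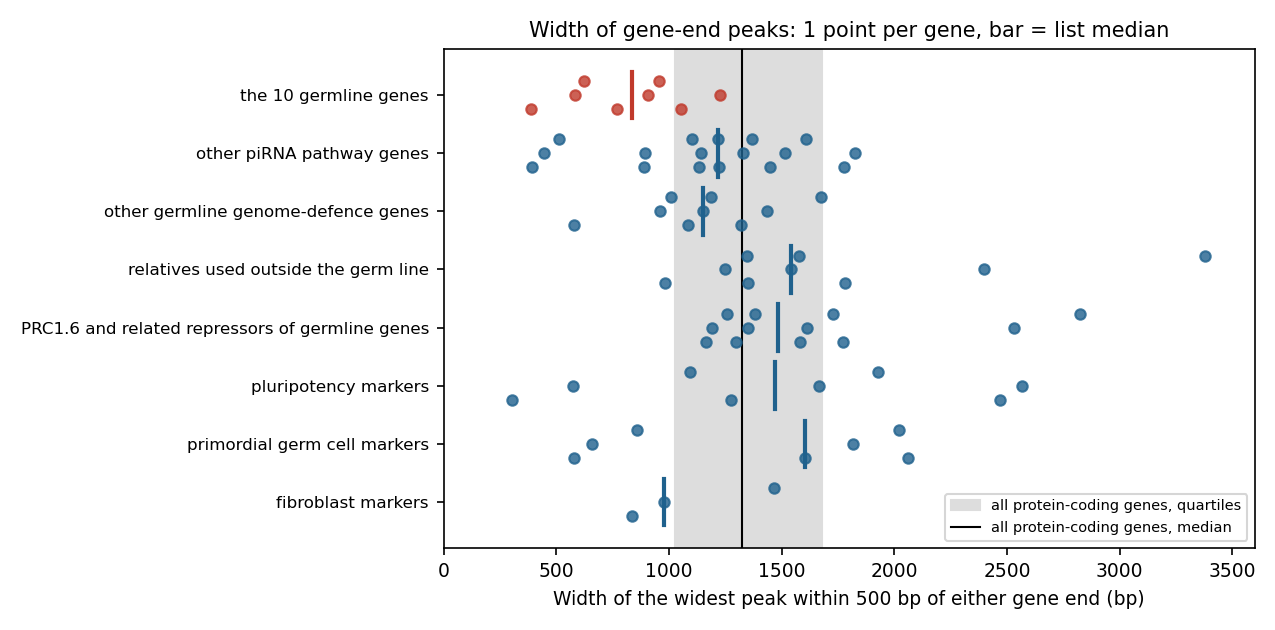
The x axis is the width in bp of the widest peak within 500 bp of either gene end, each point is 1 gene that has such a peak, the coloured bar is the median of the list, and the grey band and black line are the quartiles and the median over 15550 protein-coding genes. All 8 red points of the germline genes lie left of the black line, between 386 and 1226 bp, while 7 of 9 relatives used outside the germ line lie right of it.

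The other genes of the pathway were described by the same counts, beside the same 71.4% of protein-coding genes with an end peak and with no test of the lists against each other. Of 18 further piRNA pathway genes, 17 had a peak at an end, among them Tdrkh, a mitochondrial Tudor protein (1135 bp), Tdrd5 (1450 bp), Tdrd7 (393 bp) and Tdrd12 (1104 bp). Their peaks had a median width of 1216 bp, and 10 of 17 were narrower than the gene median. Tdrd6, a Tudor protein of late spermatogenic cells, was the exception, with its nearest peak 1.02 kb from an end. The list of other germline genome-defence genes also holds germline genes with other roles. Of its 12 counted genes, 9 had a peak at an end, including Tex19.1 and Tex19.2, which restrain retrotransposons, Morc1 and Hormad1. The median width was 1151 bp, and 7 of these 9 peaks were narrower than the gene median. The 3 genes without an end peak were Dnmt3l, a cofactor of de novo DNA methylation with an open internal promoter window, and the germ cell RNA-binding genes Nanos2 and Nanos3. Their distances from an end to the nearest peak were 0.573, 1.19 and 3.02 kb.

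Relatives of the members that work outside the germ line are set beside them here by family. The Argonaute genes Ago1, Ago2 and Ago4, which act with microRNAs, had end peaks of 1351, 984 and 1541 bp, against 386 and 768 bp for Piwil1 and Piwil4. Ago3 had no peak at an annotated end, and its promoter window inside the annotated gene was open. Mov10, the somatic counterpart of Mov10l1, had a peak of 1348 bp against 1055 bp. Ddx3x, a helicase related to Ddx4 that was named after its value was seen, had 1 of 3380 bp against 908 bp. Over the 10 relatives, 9 had an end peak with a median width of 1541 bp. Genes of PRC1.6 and related repressors of germline genes had one in 12 of 12 cases, with a median of 1484 bp. Widths were 1352, 1384, 1193 and 1165 bp at E2f6, Mga, L3mbtl2 and Pcgf6. These comparisons were not matched for CpG content. The median observed-to-expected CpG ratio of the promoters was 0.93 for the relatives and 0.89 for the repressors, against 0.78 for the members.

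The labelled cell type was checked against marker genes, beside the 71.4% of all protein-coding genes with an end peak. All 8 pluripotency markers had an end peak, Pou5f1, Nanog, Sox2 and Klf2 among them. Of 8 markers of primordial germ cells, which share much of their programme with embryonic stem cells, 7 had one, with Nanos3 as the exception, which is near that share for so few genes. Of 7 fibroblast markers, 3 had one and Col3a1, Pdgfra, Postn and Lum did not. A peak at a gene does not measure its RNA.

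Promoters of the members had the CpG content of open promoters. In the window with the highest observed-to-expected CpG ratio of each gene, the 9 members had a median ratio of 0.78 and a range of 0.43 to 0.98. The median was 0.77 over 12113 protein-coding genes with an open promoter and 0.16 over 5379 with a closed one. Genes with such ratios were open in most cases. Between 0.4 and 0.6, where Tdrd9, Piwil1 and Piwil4 lay, 84.4% were open, and 2 of these 3 members were. Between 0.6 and 0.8, where Mov10l1, Mael, Asz1 and Dazl lay, 98.1% were open, and between 0.8 and 1, where Tdrd1 and Ddx4 lay, 99.4%, with all 6 of these members open. Tdrd9 had the lowest ratio of the 9, at 0.43 with 10 CpG in 300 bp, and Ddx4 the highest, with 38.

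**Figure D3:**
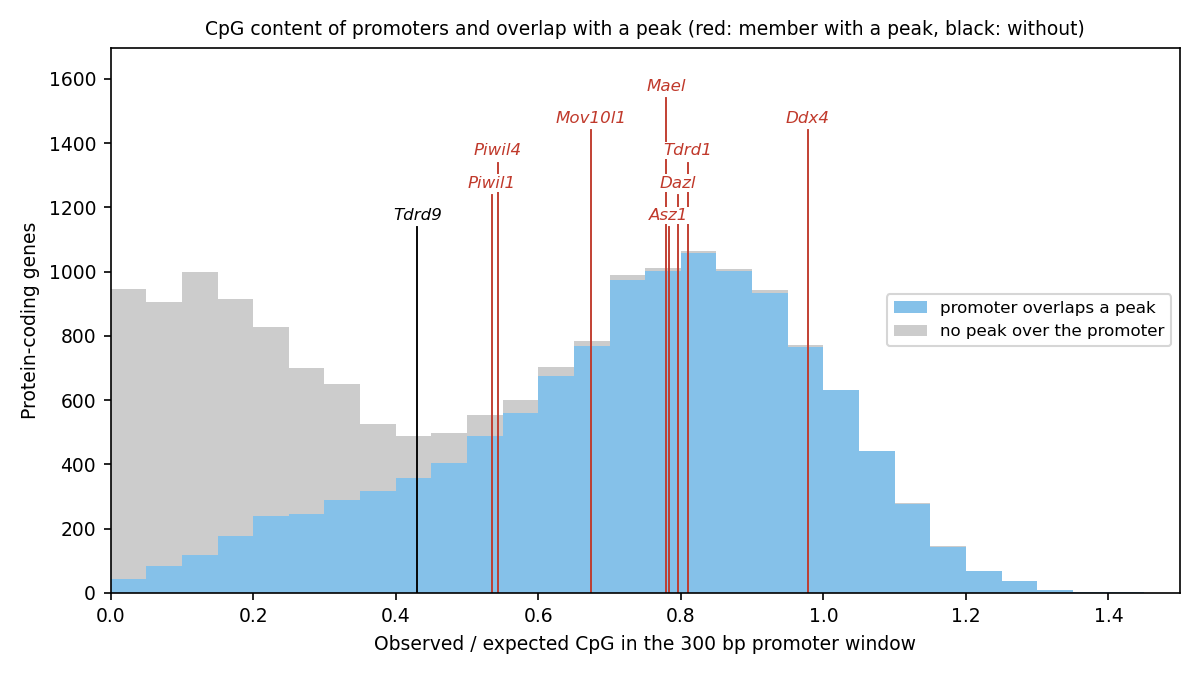
The x axis is the ratio of observed to expected CpG in the 300 bp promoter window, the y axis is the number of protein-coding genes, and the stacked bars show genes whose promoter overlaps a peak (blue) below genes whose promoter does not (grey). Vertical lines mark 9 members; Tdrd9, in black at 0.43, is the only 1 without a peak.

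The upstream sequences of 5 members are shown because they hold, or lack, the motifs counted below, and because Tdrd9 is the closed case. They are the parts of the RefSeq promoter windows (GRCm38.p6) that lie outside the annotated gene, written 5′ to 3′ on the gene's strand, with matches to 3 motifs in capitals: CACGTG, the E-box bound by MAX and its partners such as MGA, GCGGGA, a core bound by E2F factors, and GCGC followed by any base and TGCGC, the motif of NRF1, an activator of housekeeping promoters. Both strands were searched.
Mael (chr1:166238745-166238994, minus strand): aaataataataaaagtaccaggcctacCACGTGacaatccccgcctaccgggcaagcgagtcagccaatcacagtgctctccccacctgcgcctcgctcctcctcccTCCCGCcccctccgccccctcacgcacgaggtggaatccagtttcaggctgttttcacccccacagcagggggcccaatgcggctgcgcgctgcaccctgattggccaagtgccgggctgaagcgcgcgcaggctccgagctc
Mov10l1 (chr15:88982744-88982890, plus strand): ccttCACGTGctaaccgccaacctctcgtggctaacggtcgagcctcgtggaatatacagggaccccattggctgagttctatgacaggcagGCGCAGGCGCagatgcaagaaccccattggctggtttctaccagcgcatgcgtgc
Asz1 (chr6:18109062-18109311, minus strand): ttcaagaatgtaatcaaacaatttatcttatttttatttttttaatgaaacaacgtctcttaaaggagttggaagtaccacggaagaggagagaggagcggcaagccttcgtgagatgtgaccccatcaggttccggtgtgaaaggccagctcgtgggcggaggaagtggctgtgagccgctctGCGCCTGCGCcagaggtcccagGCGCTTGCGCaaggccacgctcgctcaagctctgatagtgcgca
Dazl (chr17:50293621-50293870, minus strand): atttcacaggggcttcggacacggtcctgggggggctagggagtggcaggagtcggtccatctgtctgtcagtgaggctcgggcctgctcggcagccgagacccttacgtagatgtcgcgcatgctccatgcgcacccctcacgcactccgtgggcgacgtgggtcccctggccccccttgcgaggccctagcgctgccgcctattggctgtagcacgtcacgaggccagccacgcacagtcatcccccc
Tdrd9 (chr12:111971309-111971487, plus strand): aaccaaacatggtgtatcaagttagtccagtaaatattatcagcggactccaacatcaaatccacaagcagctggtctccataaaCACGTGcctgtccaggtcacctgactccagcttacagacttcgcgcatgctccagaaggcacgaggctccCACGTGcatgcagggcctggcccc

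The E-box was the most widely shared of the 3 motifs. CACGTG was present in 6 of the 9 members, Ddx4, Mael, Tdrd1, Tdrd9, Mov10l1 and Piwil1, against 8.91% of 17492 protein-coding genes and 11.5% of those with an open promoter. Promoters in the same CpG intervals held it in 9.38% to 13.3% of cases. Piwil1 and Tdrd9 each held it in 2 places, as 0.863% of genes did. In Mov10l1 the match began 246 bases before the transcript start, in Mael 223, in Tdrd9 165 and 95, in Piwil1 179 and 154, and in Ddx4 29. In Tdrd1 it began 11 bases before the first of its annotated starts. The matches lay at various distances, all of them before the transcript start, but the windows hold 250 bases before that start and only 50 after it. The matches in Ddx4 and Tdrd1 and the nearer one in Piwil1 lay inside the annotated gene, whose end lies further upstream than that transcript start.

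The NRF1 motif was found in 4 members, Asz1, Tdrd1, Mov10l1 and Piwil4, against 7.17% of protein-coding genes and 10.3% of open ones. Asz1 held 2 matches, which began 66 and 44 bases before the start, and the match in Piwil4 began 59 bases before it. Tdrd1 and Mov10l1 held both this motif and the E-box. The E2F core GCGGGA was found in 2 members, Ddx4 and Mael, against 28.4% of genes and 39.6% of open ones. Dazl was the only member with none of the 3, as were 62.8% of genes. Of the other motifs searched, CCAAT was found in 6 of 9 members (42.3% of genes), TATAAA in 2 (14.8%) and TGACGTCA, the cAMP response element, in 0 (2.54%). No matches to different motifs overlapped in these windows.

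In the members with an open promoter, all 14 matches to the E-box, NRF1 and E2F motifs lay inside a peak. This follows largely from how these members were selected, since a peak covered 251 to 300 of the 300 bases in each of their open windows except Piwil4, where it covered 155. Both E-boxes of Tdrd9 lay outside any peak, as that window has none. A match is a run of letters and says nothing of whether a factor was bound.

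**Figure D4:**
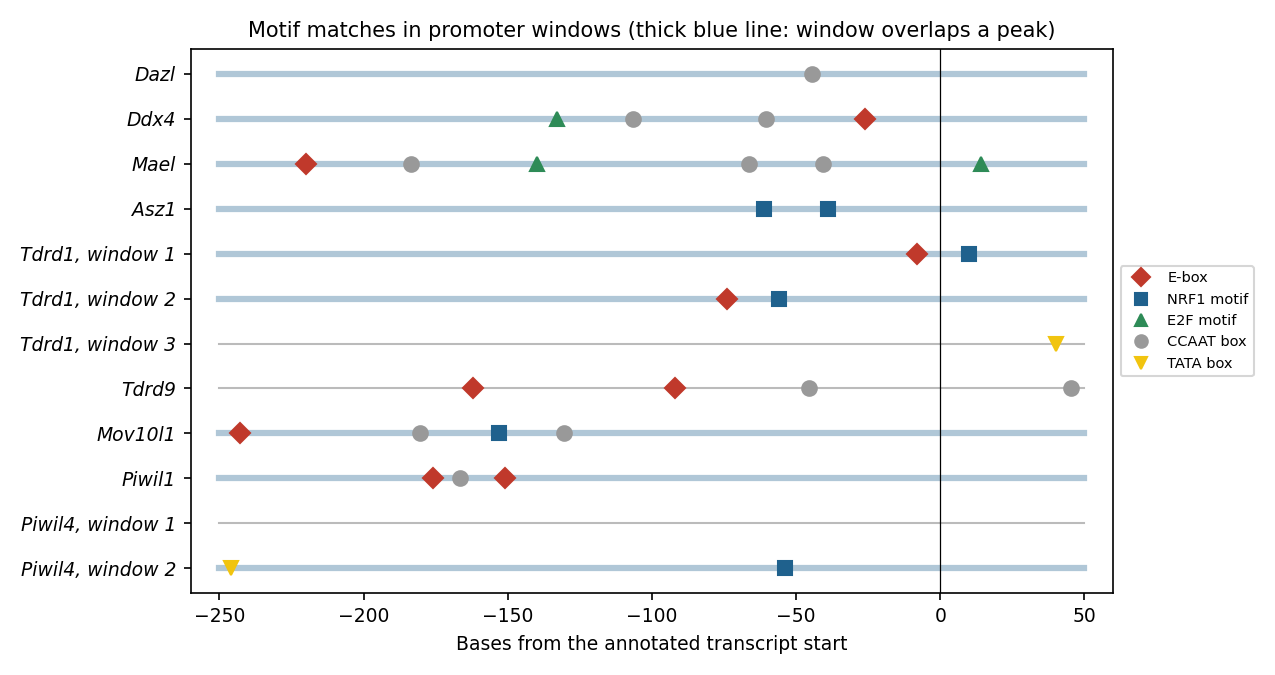
Each row is 1 promoter window of a member, the x axis is the distance in bases from the annotated transcript start, symbols mark motif matches on either strand, and a thick blue line marks a window that overlaps a peak. E-boxes (red diamonds) occur in 6 genes from 246 bases before the start to within 11 of it, and the Tdrd9 window holds 2 with no peak.

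Gene bodies, counted with the promoter peak where its midpoint lay inside, held a moderate number of peaks. The 10 genes had a median of 3 peak midpoints in the body and a median density of 6.91 per 100 kb. The median density was 9.53 over all protein-coding genes and 10.9 over genes of 10 to 100 kb, the size range of the members. That class is not matched in length, with a median of 26835 bp against 49071.5 bp for the members, and an effect of length was not tested. Asz1 had 3.44 per 100 kb, Tdrd1 4.56, Piwil2 4.66, Mael 5.35 and Ddx4 5.52, and Mov10l1 stood at 8.30. The Asz1 value leaves out its promoter peak, whose midpoint lay at -0.006 kb from the start, just outside the gene. Its body held 2 peaks by midpoint and 3 by any overlap, so its place as the lowest depends on that rule. Tdrd9, Piwil4, Dazl and Piwil1 were denser, with 12.3, 12.9, 14.1 and 15.5. The members thus fell on both sides of the gene median, and all lay within the quartiles of protein-coding genes (1.66 and 18.2). Against genes of 10 to 100 kb, whose quartiles were 5.93 and 17.3, Asz1, Tdrd1, Piwil2, Mael and Ddx4 lay below the lower quartile and none lay above the upper one.

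The surroundings differed from gene to gene. In the 50 kb on each side there were 3 peaks at Asz1, 6 each at Dazl and Ddx4, 9 at Mov10l1, 10 at Piwil2, 11 at Tdrd1, 12 at Tdrd9, 13 at Mael, 14 at Piwil4 and 17 at Piwil1. The median of 10.5 was close to the 11 of all protein-coding genes. At Asz1, the peak at the promoter had no other within 31.2 kb upstream or 21.0 kb downstream. At Ddx4 the next peak into the gene was 34.2 kb away, and at Mael the gaps were 14.6 and 22.5 kb. The median gap on the farther side was 17.5 kb for the 8 members, against 10.2 kb over the 11731 protein-coding genes with a peak at the promoter end, and on the nearer side 5.33 against 4.58 kb.

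**Figure D5:**
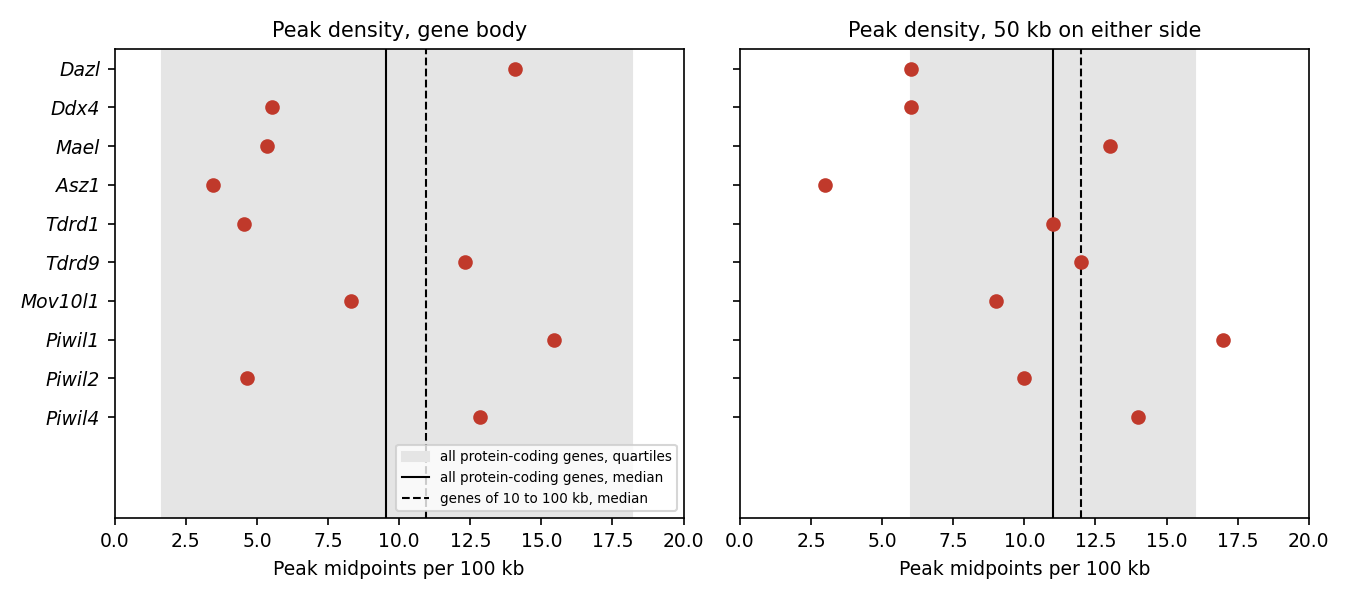
Peak midpoints per 100 kb are plotted on the x axis for each member (red points), in the gene body on the left and in the 50 kb on both sides on the right, with the quartiles (grey) and median (black line) over all protein-coding genes and the median of genes of 10 to 100 kb (dashed). Body values run from 3.44 at Asz1, whose promoter peak is counted in the flank by its midpoint, to 15.5 at Piwil1. Of the 10 genes, 6 lie below the body median of 9.53, and flank values run from 3 to 17.

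Of the 141 peaks, 8 lay over a promoter end of a member, 33 elsewhere in a member's body, 24 over an end of another gene, 41 inside another gene and 35 between genes. Of those in members' bodies, the 943 bp peak of Piwil2 and the 820 bp peak of Piwil4 also lay within 500 bp of an end of another gene. Peaks over ends of other genes had a median width of 1159 bp, and those in the members' bodies 520 bp, below the median of all peaks. Among the nearest protein-coding genes on both sides of each member, 18 of 20 had an end peak, against 71.4% of all protein-coding genes, with Il31ra and Slc38a9, the neighbours of Ddx4, as the exceptions. The peak counted for Mlc1 is the one over the Mov10l1 promoter. Some neighbours lay outside the loci, such as Rftn1 and Plcl2, 88.9 and 215 kb from Dazl. The widest end peaks of the neighbours were at 2 genes of Wnt signalling. Fzd10, 132 kb from Piwil1 and so outside its locus, had 2804 bp, and Wnt2, 18.2 kb from Asz1, had 2646 bp.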

How the data were processed

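The authors deposited 1 list of merged ATAC-seq peaks over the 18 libraries (6 times, 3 repeats each), with chromosome, start, end and name and no value per peak or sample, per the file itself; 0 columns of sample values were left unused. Per the submitters' processing notes, MACS2 2.2.7.1, Bowtie2 2.4.2 and Trimmomatic 0.36 belong to the pipeline, as do the builds mm10 and GRCm38, with no roles given. The peak threshold, the merging and the treatment of duplicates and insertion offsets are not given in the sources used here, and they bear on which peaks exist and how wide they are. Starts were read as counted from 0, as in BED files.

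Gene ends came from a RefSeq table of GRCm38.p6 (348 rows placed on scaffolds left out). Strand and promoter sequence came from RefSeq promoter windows, 12 of which matched 9 members. A peak counted at an end or promoter with an overlap of at least 1 bp, and in a body or flank by its midpoint. Observed-to-expected CpG is the number of CG times the window length over the product of the C and G numbers, in each gene's highest window. Alternatives were other windows, overlaps, flanks and wider peaks only. The members and gene lists were chosen with earlier results of these data known. Named genes are the members, their nearest neighbours, list genes without an end peak and up to 4 with one; Ddx3x and the list genes named for a motif were added after their values were seen. Dnmt3c is listed as a pseudogene there and was not counted. The counting was checked on peaks placed at known positions. Counts were made with pandas 2.3.3 and numpy 2.4.6, intervals with scipy 1.17.1 and figures with matplotlib 3.10.9, under Python 3.11.15.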

Additional observations from a re-analysis of the deposited data

How the results depend on the processing

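The number of members with an end peak was 8 with windows of 250 bp and with an overlap of at least 200 bp, 7 with peaks wider than the median alone (Piwil1 dropped out) and 10 with windows of 2000 bp, where 79.7% of protein-coding genes had one. Open promoters numbered 7 with an overlap of 200 bp and 7 with wide peaks alone. The median width of end peaks was 838 bp with windows of 250 bp and 696.5 bp with 2000 bp, where Tdrd9 and Piwil2 entered, against 1328 and 1331 bp over all genes. Median body density was 4.40 per 100 kb with wide peaks alone and 4.47 without 2 kb at both ends, against 4.60 and 6.67 over all genes. With any overlap it was 6.91 against 11.6. Over body and flanks the median of 8.87 per 100 kb (10.6 over all genes) became 5.21 with wide peaks alone, 6.79 with flanks of 20 kb and 10.0 with 100 kb, against 5.53, 10.8 and 10.3. No paired analysis was possible because the list carries no value per library, and for the same reason no library could be left out. Depth is unknown, so absent peaks cannot be given a limit.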

Other observations

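The motifs counted in the members were also counted in the other lists. On the list of other germline genome-defence genes, 5 of 11 with a promoter window held the E-box CACGTG: Dnmt3l, Hormad1, Stk31, Slc25a31 and Taf7l. That list also holds germline genes with other roles. The E-box was found in 3 of 12 other piRNA pathway genes, Pld6, Fkbp6 and Ddx25. It was found in 1 of 9 relatives used outside the germ line, Dazap1, in 2 of 11 genes of PRC1.6 and related repressors, Max and Tfdp1, and in 1 of 8 pluripotency markers, Klf4. The NRF1 motif was found in 7 of 12 other piRNA pathway genes, among them Tdrd5, Pld6, Gpat2 and Henmt1, and in 4 of 11 on the mixed genome-defence list. It was found in 3 of 9 relatives, in 5 of 11 genes of PRC1.6 and related repressors and in 0 of 8 pluripotency markers. Over all protein-coding genes the shares were 8.91% for the E-box and 7.17% for the NRF1 motif. These counts are descriptions of short lists, which were not tested.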
